A study of Mus musculus with 3 samples.

Results

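The collagen chain genes are the 44 mouse genes whose symbol is Col, a number, the letter a and a number, out of 32293 features counted (32285 mouse genes and 8 reporter sequences). They were followed through the non-hematopoietic cells of the aged thymus: how many collagen transcripts each stromal class held, which chains these were, and how far the pattern repeated in separate libraries. Neither the member rule nor the class gates use the level of a collagen gene, although both were set with earlier results of these data known. The data are droplet single-cell RNA sequencing of CD45-depleted thymic stroma from untreated C57BL/6 mice aged 20 months, each library a pool of thymi. The 3 libraries are a female and a male Foxn1 lineage-trace pool (Foxn1Lin female and Foxn1Lin male) and a wild-type male pool (WT male), so each group is 1 library. In the lineage trace, Cre recombinase driven by Foxn1, the thymic epithelial transcription factor, switches on a tdTomato reporter from the Rosa26 locus, which stays on in descendants of any cell that once expressed Foxn1; the wild-type mice carry neither transgene. The cell type label of the wild-type library reads CD45-PECAM1+ although its title reads CD45-, and the protocol label names female mice for every library. Genotype, sex and library cannot be told apart, so libraries are set side by side without a test, and tests are made between cell classes with the library as a block.

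Collagens are proteins, most of them secreted, in which 3 alpha chains wind into a triple helix. The chains of a helix may be alike or differ, and each kind of chain is the product of its own gene. Fibrillar collagens (types I, III and V among them) form the cords of connective tissue, type IV builds the sheet-like network of basement membranes, type VI forms beaded microfilaments around cells, FACIT collagens (types XII and XIV among them) decorate fibrils, and multiplexins (types XV and XVIII) sit at the edge of basement membranes. In the thymus, fibroblasts of the capsule and septa, the walls of blood vessels and the epithelium itself all border such matrices.

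Barcodes were placed in a class by UMIs (unique molecular identifiers, counted transcripts) of non-collagen genes: thymic epithelial cells (TEC) by Epcam, endothelial cells (EC) by Pecam1, fibroblasts (FB) by Pdgfra, mural cells by Rgs5 and Acta2, mesothelial cells by Upk3b, and Spp1-high cells by Spp1 with little Epcam and no Ptprc. Values in series are given in the order Foxn1Lin female, Foxn1Lin male and WT male. The classes held 464, 426 and 867 TEC barcodes, 1878, 818 and 855 EC, 1848, 860 and 1705 FB, 424, 443 and 350 mural, 338, 0 and 36 mesothelial, and 11, 28 and 34 Spp1-high. Marker genes other than the gate genes were checked: the FB list summed to 12406, 14797 and 11964 CPM (UMIs per 1000000 UMIs of the class) in FB, the EC list to 7140, 6330 and 6472 in EC, the mural list to 9515, 9572 and 8678 in mural cells and the TEC list to 7812, 7502 and 6292 in TEC. Mesothelial cells had 2953 and 3238 CPM of the mesothelial list and also 7892 and 8309 of the FB list, all 6 genes of which had UMIs there. The Spp1-high class was small. The TEC list summed to 417, 934 and 815 CPM in it, against 167, 88.4 and 154 in FB, with UMIs for 4, 3 and 5 of the 7 genes. Krt5 and Krt19 of that list had 0 UMIs in the class in all 3 libraries. The class is called by its gate gene only. TEC also carried markers of hematopoietic cells, at 776, 464 and 427 CPM in sum, the highest of the 6 classes. Libraries held 53366016, 33386621 and 61258534 UMIs in called barcodes, of which collagens took 0.421%, 0.360% and 0.411%. Free RNA differed between libraries: 26.5% of UMIs lay outside called barcodes in the female library, against 12.9% and 9.46%. The FB markers summed to 709 CPM in female EC against 63.7 and 86.5 in the male libraries, and fibroblast collagens in female EC are to be read beside that. Pairs of libraries shared 3 to 14 barcodes. Fewer transcribing cells and less RNA per cell cannot be told apart in summed counts.

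The promoters of members described below were read from RefSeq (GRCm38.p6), in windows of 300 bases that run from 250 bases before a transcript start to 50 after it. A window was present for 35 of the 44 members. The head-to-head pair Col4a1 and Col4a2 is shown because both genes read out from the same stretch: their starts lie 21 bases apart on opposite strands of chromosome 8, and their windows share 78 bases. Col3a1 is shown as a main fibrillar chain of fibroblasts, Col4a5 as a chain that mural cells held and EC all but lacked, and Col19a1 as the chain of mural cells and TEC. Capitals mark the GC box (GGGCGG), the CCAAT box and the TATA box (TATAAA), each searched as written and as its reverse complement.
Col4a1 and Col4a2, shared stretch, chr8:11312777-11312854, + strand: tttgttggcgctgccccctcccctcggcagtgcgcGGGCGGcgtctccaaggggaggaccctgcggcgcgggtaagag
Col3a1, chr1:45311288-45311587, + strand: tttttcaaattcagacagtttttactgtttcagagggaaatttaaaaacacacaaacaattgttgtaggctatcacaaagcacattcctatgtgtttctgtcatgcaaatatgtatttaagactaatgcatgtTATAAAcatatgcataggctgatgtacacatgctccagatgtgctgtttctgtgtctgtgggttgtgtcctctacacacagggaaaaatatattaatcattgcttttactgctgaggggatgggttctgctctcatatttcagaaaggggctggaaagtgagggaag
Col4a5, chrX:141475169-141475468, + strand: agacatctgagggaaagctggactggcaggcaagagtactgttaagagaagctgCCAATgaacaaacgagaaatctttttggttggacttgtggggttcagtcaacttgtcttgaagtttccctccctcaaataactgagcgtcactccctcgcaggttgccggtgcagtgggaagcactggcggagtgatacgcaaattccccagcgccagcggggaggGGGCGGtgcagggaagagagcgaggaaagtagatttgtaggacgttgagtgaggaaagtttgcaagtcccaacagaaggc
Col19a1, chr1:24587388-24587687, - strand: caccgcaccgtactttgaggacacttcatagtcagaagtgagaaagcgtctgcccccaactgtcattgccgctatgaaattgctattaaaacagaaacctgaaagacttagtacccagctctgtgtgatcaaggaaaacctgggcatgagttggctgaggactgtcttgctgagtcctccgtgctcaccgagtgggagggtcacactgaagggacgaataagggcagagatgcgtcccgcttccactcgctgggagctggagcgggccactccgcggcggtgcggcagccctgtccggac
None of the 3 motifs was in the Col19a1 window, which says only that these letters are not there. A GC box was found in 23 of 38 member windows (60.53%) and in 35.66% of all 32851 windows. The CCAAT box was found in 13 of 38 (34.21%) against 37.41%, and the TATA box in 5 of 38 (13.16%) against 13.62%. A match is a description of letters and not a binding site, and these shares were not tested. Col4a5 and Col4a6 on chromosome X are also head to head, with starts 1343 bases apart and no shared window.

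Fibroblasts held the most collagen transcripts of the 6 classes in every library. All chains together came to 7845, 8131 and 10159.9 CPM in FB. Mural cells had 3000.1, 2119 and 3233 CPM, EC 2483, 1762 and 2329.8 CPM and TEC 853, 1005 and 1084 CPM. FB lay above and TEC below the other 2 of these 4 classes without overlap, and mural cells exceeded EC within each library although their ranges overlapped. Mesothelial cells, present in the female and WT libraries alone, had 2949.6 and 3484 CPM, and Spp1-high cells 3771, 2954 and 4783 CPM. Empty droplets, which show the free RNA of each library, carried 2064, 2257 and 3382 CPM, above the TEC level in all 3 libraries and above the EC and mural levels in both male libraries.

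The classes also differed in kind. Fibrillar chains made up 51.2, 42.8 and 46.7% of the collagen UMIs of FB and 69.3 and 70% of those of mesothelial cells. In EC, type IV chains alone made up 75.3, 75.9 and 74.5%, a range of under 2 percentage points. Mural cells were mixed, with 46.8, 37.1 and 34.3% type IV and 22.6, 26.1 and 28% fibrillar. In TEC, type IV and FACIT chains were level with each other, at 29.9, 33.5 and 28.5% and 29.3, 32.5 and 32.1%, the largest FACIT share of the 6 classes in each library.

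**Figure D1:**
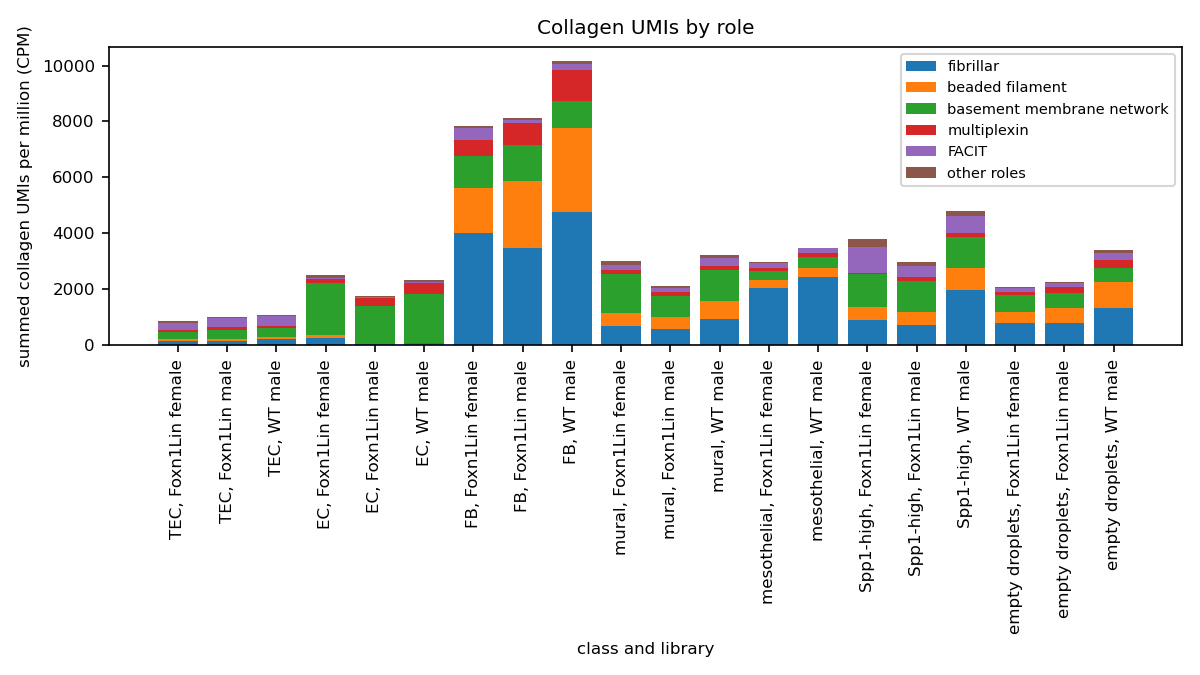
Summed collagen CPM for each class and library, stacked by structural role. FB bars reach 7845 to 10160 CPM and are mostly fibrillar and beaded-filament chains, EC bars are mostly basement membrane network, and TEC bars stay at 1084 CPM or below, under the empty droplets of the same library.

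Between classes, the 44 genes were tested with all other genes in 1 fit (edgeR quasi-likelihood test on summed counts, library as block, Benjamini-Hochberg adjusted p under 0.05 over 17688 genes; 43 of the 44 entered it, and Col11a1 did not). In TEC against FB, 9 of the 44 were higher and 27 lower, beside 27.5% and 25.3% of all genes tested, and the members' median log2 fold change was -2.36 against 0.02 for all genes. In EC against FB, 4 of the 44 were higher and 29 lower, beside 17.1% and 20.3% of all genes tested, with medians of -2.94 and -0.02. The 4 higher calls in EC were 6 without the Foxn1Lin female library, 2 without the Foxn1Lin male, 0 without the WT male and 2 without the library block. In mural cells against FB, 7 of the 44 were higher and 21 lower, beside 12.7% and 13.9% of all genes tested, with medians of -1.22 and -0.06. In TEC and EC most members thus read lower than in FB, and lower calls were more frequent among them than among all genes. With the size factors of DESeq2 in place of TMM the all-gene median of TEC against FB moved to 0.31 and the share of higher calls from 52.1% to 66.4%, while the members stood at 9 higher and 26 lower. In mesothelial cells against FB, over the 2 libraries with mesothelial cells, 2 of the 44 were higher and 20 lower, beside 9.22% and 10.5% of all genes tested, with medians of -1.82 and -0.12. In Spp1-high cells against FB, 3 of the 44 were higher and 11 lower, beside 3.58% and 4.94% of all genes tested, with medians of -1.51 and -0.41. With DESeq2 size factors the share of higher calls over all genes moved from 42.0% to 58.4% there, and the members to 5 higher and 9 lower. The 14 Spp1-high calls depended on single libraries: they were 22 without the Foxn1Lin female library, 2 without the Foxn1Lin male and 3 without the WT male, and the mural count of 28 calls fell to 16 and 12 without the last 2 in turn.

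Mural cells and TEC were also compared with EC, and Spp1-high cells with TEC. Against EC, both had more members higher than lower. In mural cells against EC, 23 of the 44 were higher and 5 lower, beside 18.2% and 16.4% of all genes tested, with medians of 1.98 and -0.01. The 5 lower calls fell to 3 without the Foxn1Lin male library and 2 without the WT male. The FB list summed to 1018, 1200 and 865 CPM in mural cells against 709, 63.7 and 86.5 in EC. One of its 6 genes, Pdgfrb, is on the mural list too and gave 381, 315 and 388 CPM of the mural sums, and Dcn, which is on the FB list alone, gave 356, 799 and 403 CPM. The part of the FB markers in this difference was not tested. In TEC against EC, 19 of the 44 were higher and 7 lower, beside 30.2% and 23.5% of all genes tested, with medians of 0.94 and 0.11. In this comparison DESeq2 size factors moved the all-gene median to 0.30 and gave 21 members higher and 7 lower. With free RNA subtracted the members were 22 higher and 11 lower with a median of 1.82. The FB list stood at 415, 270 and 255 CPM in TEC against 709, 63.7 and 86.5 in EC. The mesothelial list stood at 110, 65.1 and 59.2 against 26.5, 1.18 and 2.55. The part of these markers in the TEC and EC difference was not tested. In Spp1-high cells against TEC, 18 of the 44 were higher and 1 lower, beside 8.05% and 6.86% of all genes tested, with medians of 1.73 and -0.32, and the 19 calls fell to 9 without the WT library. Spp1-high cells also carried fibroblast markers at 3787, 3648 and 3552 CPM in sum, against 415, 270 and 255 in TEC, and mural markers at 464, 698 and 821 against 153, 178 and 134. The part of either in the collagen difference was not tested.

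Of the 44 members, 24 reached 20 CPM in some class in each library and are described by their values. For 17 of these the class with the highest level was the same in all 3 libraries: FB for 13, mural cells for Col18a1 and Col19a1, EC for Col4a2 and Spp1-high cells for Col14a1. Values with ± below are log2 fold changes, adjusted p-values are from the edgeR fit, errors of log2 fold changes are standard errors, and n is 3 libraries unless stated.

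**Figure D2:**
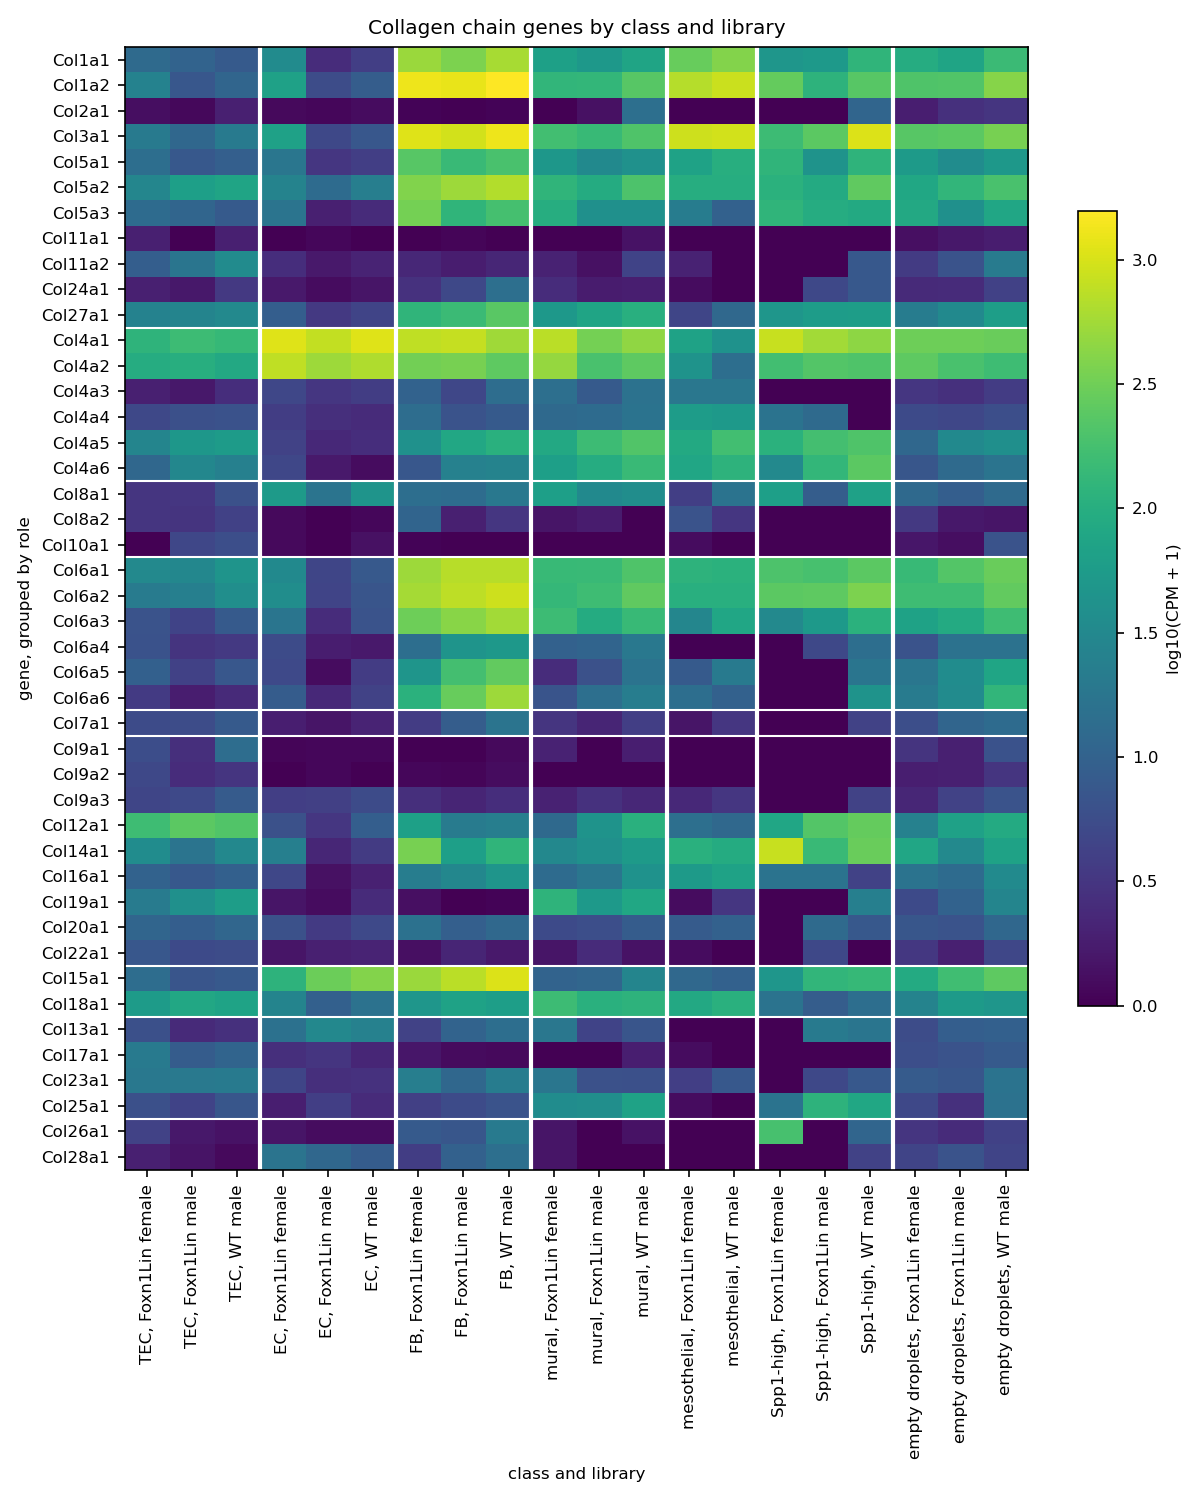
Level of collagen chains by class and library, as log10 of CPM plus 1. Of the chains that reached 20 CPM in some class in each library, the fibrillar and beaded-filament ones are highest in FB. Col4a1 and Col4a2 run through EC, FB and mural cells. Col19a1 is above 20 CPM in TEC and mural cells in each library and below 2 CPM in FB and EC.

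The major fibrillar chains were fibroblast genes. Col1a2 (ENSMUSG00000029661, chromosome 6, 4504814 to 4541544), which supplies 1 of the 3 chains of type I collagen, had 1308, 1215 and 1568 CPM in FB. In TEC it had 25.2, 6.37 and 10 CPM, in EC 66.6, 4.47 and 7.66 CPM and in mural cells 125, 128 and 228 CPM. FB lay above every other class in every library, and the female EC value, far above the male ones, stood beside FB markers that were also higher in female EC. In female EC 73 of 623 UMIs of Col1a2 lay in 1 barcode, and whether free RNA or doublets carried the others was not tested. The log2 fold change was -7.30 ± 0.75 (adjusted p = 2.14e-06) in TEC against FB, -6.26 ± 0.73 (adjusted p = 9.22e-06) in EC and -3.13 ± 0.61 (adjusted p = 0.0016) in mural cells. Mesothelial cells came closest, at 689 and 869 CPM, and their difference of -1.31 ± 0.68 (adjusted p = 0.217) was not called over 2 libraries. The FB markers of mesothelial cells (7892 and 8309 CPM) moved with this level, and their part in it and in those of Col1a1 and Col3a1 was not tested.

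Col1a1 (ENSMUSG00000001506, chromosome 11, 94936224 to 94953042), the partner that gives the other 2 chains, followed at 522, 365 and 590.0 CPM in FB. Its levels were 281 and 394 CPM in mesothelial cells, 64.8, 49.2 and 73.1 CPM in mural cells and 11.8, 9.32 and 6.98 CPM in TEC. Few epithelial barcodes carried it: in the Foxn1Lin male library 33 of 60 UMIs in TEC came from 1 barcode. The log2 fold change in TEC against FB was -6.13 ± 0.74 (adjusted p = 9.25e-06).

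Col3a1 (ENSMUSG00000026043, chromosome 1, 45311538 to 45349706), the sole chain of type III collagen of soft connective tissue, had 1106, 946 and 1293 CPM in FB and 883 and 959.6 CPM in mesothelial cells. Mesothelial cells lay below FB in both libraries that held them, with a log2 difference of -0.76 ± 0.80 (adjusted p = 0.594) that was not called. In mural cells it had 167, 139.9 and 204 CPM, a difference of -2.77 ± 0.72 (adjusted p = 0.0105). This call was lost without the Foxn1Lin male library (adjusted p = 0.0852) or without the WT library (adjusted p = 0.0558). It was also lost in the fit with free RNA subtracted from TEC and EC (adjusted p = 0.0991), in which mural and FB counts were unchanged. In Spp1-high cells Col3a1 had 155, 248 and 1049 CPM, and the WT value of these lay within the FB range. Spp1-high cells exceeded TEC by 5.20 ± 0.83 (adjusted p = 0.000747).

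Type V chains, which join type I in fibrils and limit their width, were all lower in TEC than in FB. Col5a2 had 389, 529 and 669.9 CPM in FB against 28.1, 61.8 and 73.1 in TEC. Col5a1 had 234, 145 and 189 CPM in FB against 13.2, 6.53 and 8.3 in TEC. Both were lower in TEC than in FB, at -3.69 ± 0.36 (adjusted p = 1.35e-06) for Col5a2 and -4.79 ± 0.42 (adjusted p = 4.83e-07) for Col5a1. Col5a3 had 338, 123 and 178 CPM in FB and 12.1, 9.94 and 6.98 CPM in TEC, a log2 fold change of -4.75 ± 0.47 (adjusted p = 1.42e-06). Col27a1, a fibrillar collagen of cartilage by background, had 121, 152 and 239.7 CPM in FB, 50.2, 72.4 and 104 in mural cells and 25, 26.9 and 30.7 in TEC, where the values differed little between libraries. In EC it fell to 7.91, 2.37 and 3.49 CPM, and EC differed from FB by -5.14 ± 0.38 (adjusted p = 2.25e-07).

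The type VI chains were also led by fibroblasts. Col6a1 (ENSMUSG00000001119) and Col6a2 (ENSMUSG00000020241) lie near each other on chromosome 10, at 76708792 to 76726168 and 76595762 to 76623630, and had 527, 711 and 708 and 580.0, 753 and 904 CPM in FB. In TEC Col6a1 had 30.7, 29.1 and 44.6 CPM and Col6a2 20.3, 23.2 and 37.2 CPM. Col6a3, the long chain of the filament, had 306, 419 and 563 CPM in FB and 5.53, 3.42 and 6.92 in TEC. TEC and FB did not overlap for any of these chains, with log2 fold changes of -4.65 ± 0.54, -5.21 ± 0.64 and -6.81 ± 0.58. The largest adjusted p of the 3 was 6.55e-06. Mural cells held 142, 145 and 208 CPM of Col6a1, and the call against FB of -2.06 ± 0.48 (adjusted p = 0.0055) was lost without either male library (adjusted p = 0.0575 without the Foxn1Lin male and 0.0571 without the WT). The calls in mural cells for Col6a2 (-2.10 ± 0.56) and Col6a3 (-1.85 ± 0.46) were lost in the same way, with adjusted p from 0.0705 to 0.099. Col6a2 was also lost in the fit with free RNA subtracted from TEC and EC (adjusted p = 0.0699), in which mural and FB counts were unchanged.

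The 3 further chains of this type, Col6a4, Col6a5 and Col6a6, which can stand in for Col6a3, were FB chains too. Col6a6 had 109, 286 and 539.8 CPM in FB, Col6a5 45.2, 172 and 264 CPM and Col6a4 13.4, 44.2 and 49.7 CPM. All 3 were lowest in the female library, in which the fibroblast subset that holds little of them was the larger one (below). In mesothelial cells Col6a4 had 0 UMIs in both libraries, at least 45.7-fold lower than in FB when 3 UMIs over the group are taken as the floor. In TEC Col6a6 had 2.46, 0.777 and 1.43 CPM, with a log2 fold change against FB of -8.06 ± 0.78 (adjusted p = 1.15e-06).

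Type IV was the collagen that most classes shared. Col4a1 (ENSMUSG00000031502, chromosome 8, 11198423 to 11312826) had 1086, 796 and 1079.9 CPM in EC, 782, 829 and 553 in FB and 739, 332 and 465 in mural cells. EC and FB overlapped, and their difference of 0.45 ± 0.26 (adjusted p = 0.198) was not called. TEC, at 118, 154 and 138 CPM, lay below all 3 and below the empty droplets (309, 308 and 293 CPM), with -2.77 ± 0.27 (adjusted p = 1.49e-06) against FB and -3.22 ± 0.28 (adjusted p = 4.54e-07) against EC. Mesothelial cells had the least of the 6 classes, 69.2 and 41.8 CPM, and differed from FB by -3.78 ± 0.36 (adjusted p = 5.69e-06) over 2 libraries. Mural cells were lower than EC, at -1.04 ± 0.26 (adjusted p = 0.00597), a call lost without the WT library (adjusted p = 0.0815).

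Col4a2 (ENSMUSG00000031503, chromosome 8, 11312805 to 11449287), its partner across the shared promoter, ran alongside with a different balance. It had 770.0, 535 and 649 CPM in EC and 323, 343 and 249 in FB, and these did not overlap. EC were higher by 1.07 ± 0.30 (adjusted p = 0.01), a call lost without the WT library (adjusted p = 0.125). TEC had 93.9, 99.6 and 84.1 CPM, -3.18 ± 0.32 (adjusted p = 1.55e-06) against EC. In mural cells (494, 187 and 254 CPM) the female value lay above the FB value and the Foxn1Lin male value below it. Mural cells were lower than EC, at -1.17 ± 0.30 (adjusted p = 0.00655), which was lost without the Foxn1Lin male (adjusted p = 0.0756) or the WT library (adjusted p = 0.0841).

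The ratio of Col4a1 to Col4a2 UMIs separated FB from EC in every library. It was 2.42 (2.34 to 2.5), 2.42 (2.31 to 2.52) and 2.22 (2.13 to 2.31) in FB, with 95% counting intervals in parentheses. In EC it was 1.41 (1.37 to 1.45), 1.49 (1.43 to 1.55) and 1.66 (1.61 to 1.72), in each library below the interval of FB. In TEC it was 1.26, 1.55 and 1.64, in mural cells 1.5, 1.78 and 1.83 and in empty droplets 1.23, 1.65 and 1.85. These ratios compare UMIs taken at the 3′ ends of transcripts and are not the stoichiometry of the protein, in which type IV triple helices hold 2 chains of Col4a1 and 1 of Col4a2. Counting intervals cover counting error alone.

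The other type IV pair told mural cells, TEC and mesothelial cells from EC. Col4a5 (ENSMUSG00000031274, chromosome X, 141475385 to 141689234) had 83.1, 154 and 213 CPM in mural cells, 40.4, 81.7 and 104 in FB, 27.5, 48 and 56.1 in TEC and 3.32, 1.31 and 1.61 in EC. EC were lowest in all 3 libraries, and mural cells exceeded EC by 5.93 ± 0.38 (adjusted p = 1.23e-07) and TEC exceeded EC by 3.84 ± 0.36 (adjusted p = 9.23e-07). Against FB, mural cells were higher by 0.94 ± 0.29 (adjusted p = 0.0258), which was lost without the Foxn1Lin male (adjusted p = 0.0963) or the WT library (adjusted p = 0.195), and without the library block (adjusted p = 0.145). TEC were lower than FB, at -1.15 ± 0.29 (adjusted p = 0.00405), which was lost without the Foxn1Lin male (adjusted p = 0.101) or when barcodes with a gene of another gate were left out (adjusted p = 0.086).

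Col4a6 (ENSMUSG00000031273, chromosome X, 141165403 to 141474076), which assembles with Col4a5, had 62.2, 95.1 and 147 CPM in mural cells, 76.6 and 114 in mesothelial cells and 30.9, 128 and 244 in Spp1-high cells. In FB it had 6.37, 24.6 and 26.2 CPM, in TEC 10.6, 28.9 and 23.7 and in EC 3.74, 0.657 and 0.269. Mural values lay above FB in each library, by 2.43 ± 0.55 (adjusted p = 0.00423), and mesothelial values too, by 2.50 ± 0.63 (adjusted p = 0.011) over 2 libraries, with an adjusted p of 0.056 without the library block. The Spp1-high excess over FB of 2.88 ± 0.63 (adjusted p = 0.0106) was lost without the Foxn1Lin male (adjusted p = 0.0806) or the WT library (adjusted p = 0.191). Col4a4, a chain of the kidney and lung basement membrane network with Col4a3 and Col4a5, was highest in mesothelial cells at 57.2 and 50.6 CPM against 13, 5.48 and 7.05 in FB, 2.53 ± 0.39 (adjusted p = 0.000291). Col4a3, chosen after its values were seen because it is the head-to-head neighbour of Col4a4 by background, had 17.6 and 17.6 CPM in mesothelial cells and 9.03, 3.85 and 13 in FB.

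The multiplexins divided the classes along another line. Col15a1 (ENSMUSG00000028339, chromosome 4, 47208161 to 47313167), a heparan sulfate and chondroitin sulfate bearing chain at basement membranes, had 512, 728 and 1064 CPM in FB and 116, 301 and 399.9 CPM in EC. Mural cells had 9.4, 10.4 and 27.3 CPM, TEC 12.8, 5.9 and 6.7 and mesothelial cells 11 and 8.8. EC lay below FB in each library, at -1.54 ± 0.41 (adjusted p = 0.00843), and this call was lost without the Foxn1Lin male (adjusted p = 0.0649). Mural cells, TEC and mesothelial cells were far lower than FB, at -5.69 ± 0.51 (adjusted p = 2.08e-06), -6.78 ± 0.53 (adjusted p = 1.88e-07) and -5.99 ± 0.65 (adjusted p = 1.81e-05) in turn. All 3 lay below the empty droplets, which held 88.5, 165 and 249 CPM.

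Col18a1, the other multiplexin and the source of endostatin, had its top level in mural cells in all 3 libraries. It had 153, 105 and 116 CPM in mural cells, 82.9 and 106 in mesothelial cells, 55.5, 81.3 and 71.3 in TEC, 46.9, 69 and 61.6 in FB and 26.6, 8.54 and 15.2 in EC. Mural cells exceeded FB by 0.99 ± 0.29 (adjusted p = 0.0193), a call lost without the WT library (adjusted p = 0.188) or with doubled gates (adjusted p = 0.0526). TEC had more CPM than FB in each library, but the scaled difference was -0.17 ± 0.28 (adjusted p = 0.644) and was not called. Spp1-high cells were lower than TEC, at -2.36 ± 0.58 (adjusted p = 0.0134), which was lost without the WT library (adjusted p = 0.182).

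Several FACIT chains stood higher in TEC than in FB. Col12a1 (ENSMUSG00000032332, chromosome 9, 79598991 to 79718831), which bridges fibrils and is known from tendon and dense tissue, had 157, 246 and 212 CPM in TEC. It had 64.4, 20.4 and 22.3 CPM in FB, 5.13, 2.23 and 8.06 in EC and 24.4, 66.9 and 88.8 in empty droplets. TEC lay above FB, EC and the empty droplets in each library. The log2 fold change was 2.08 ± 0.61 (adjusted p = 0.00979) against FB, lost without the Foxn1Lin male (adjusted p = 0.106) or the WT library (adjusted p = 0.0856) and with doubled gates (adjusted p = 0.0635), and 5.02 ± 0.70 (adjusted p = 3.45e-05) against EC. Spp1-high cells had 77.3, 217 and 277 CPM. Mural cells had 11.5, 43.3 and 105 CPM, and in the WT library 173 of 251 UMIs came from 1 barcode.

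Col19a1 (ENSMUSG00000026141, chromosome 1, 24261890 to 24587472), a minor chain known from muscle and brain, belonged to mural cells and TEC. Mural cells had 119, 51.5 and 79 CPM and TEC 20.3, 38.8 and 59.8 CPM. FB had 0.35, 0 and 0.0659 CPM and EC 0.535, 0.263 and 1.48, so neither overlapped with mural cells or TEC. Mural cells exceeded FB by 8.91 ± 0.68 (adjusted p = 5.44e-07) and TEC exceeded FB by 7.49 ± 0.68 (adjusted p = 6.87e-07), both against FB values at or near the limit of detection. Mural cells exceeded EC by 6.78 ± 0.59 (adjusted p = 9.45e-07). In Spp1-high cells it had 0 UMIs in both Foxn1Lin libraries, and 7 of 7 UMIs in the WT library came from 1 barcode. It was called higher there than in FB, at 5.79 ± 1.48 (adjusted p = 0.0249), which was lost without the Foxn1Lin male library (adjusted p = 0.0569), and the value without the WT library was -3.41.

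Col14a1 (ENSMUSG00000022371, chromosome 15, 55307750 to 55520803), a fibril-associated chain of skin and tendon, was lowest in the Foxn1Lin male library in FB. FB had 344, 62 and 122 CPM, with the female library highest, and TEC had 34.7, 15.8 and 29.9 CPM. Spp1-high cells had 835, 143 and 287 CPM, above FB in each library, although 24 of 54 UMIs of the female value came from 1 barcode. Spp1-high cells exceeded TEC by 3.87 ± 0.61 (adjusted p = 0.000655), while their difference from FB of 1.05 ± 0.56 (adjusted p = 0.302) was not called. Col16a1, a FACIT of smooth muscle and skin, had 12, 17.2 and 41.2 CPM in mural cells, 54 and 68.2 in mesothelial cells and 21.4, 28.8 and 45.1 in FB.

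**Figure D3:**
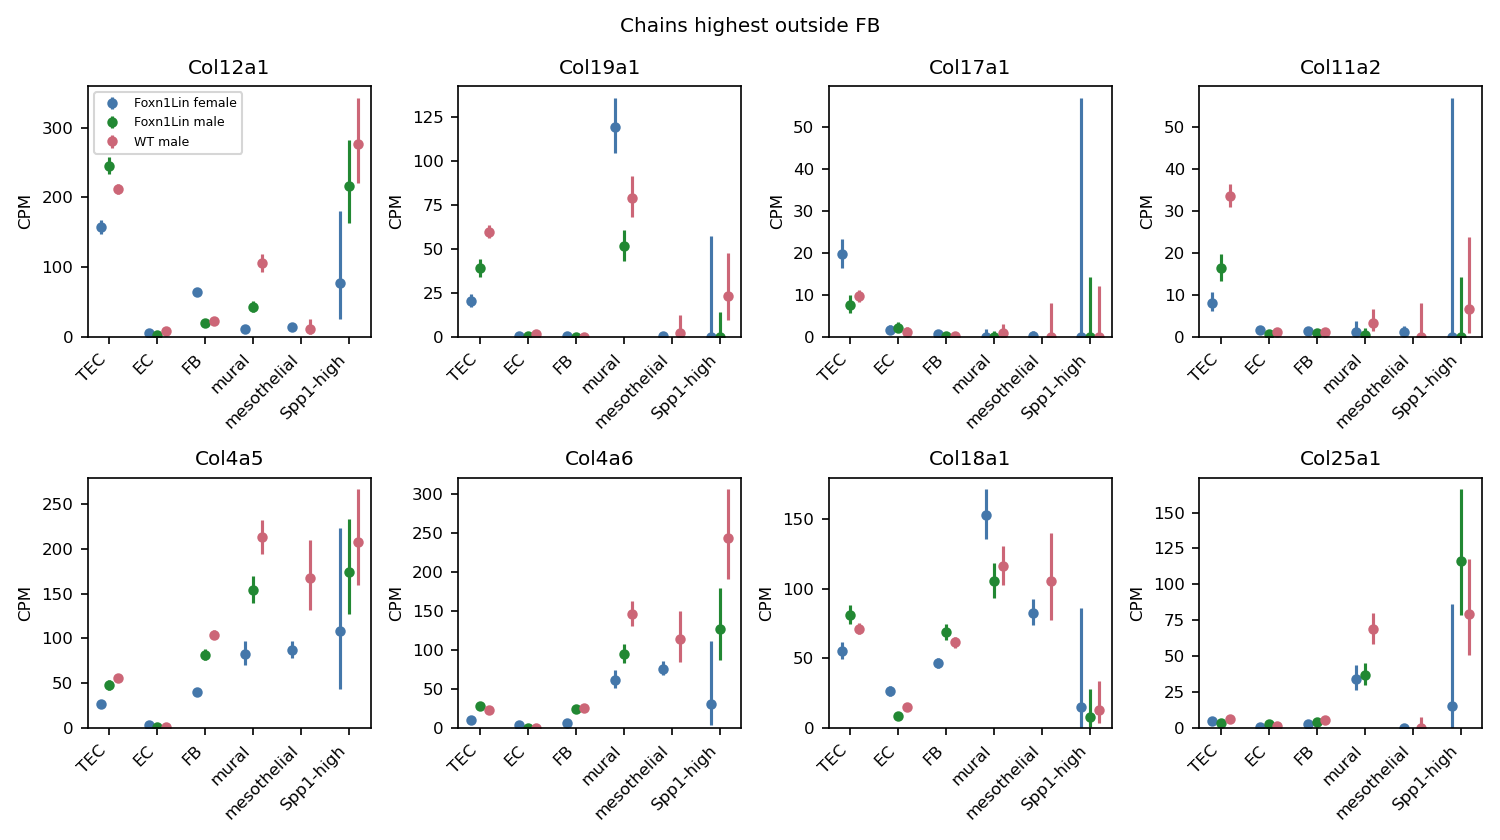
Collagen chains whose level outside fibroblasts is described in the text, as CPM by class with 1 point per library and 95% counting intervals. Col12a1 is highest in TEC among TEC, EC and FB, Col19a1 in mural cells and TEC, and Col4a5 and Col4a6 are lowest in EC.

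Among network and transmembrane chains, Col8a1, which forms a hexagonal lattice under endothelium, had 53.9, 16 and 43.7 CPM in EC, 62.2, 31.7 and 36.1 in mural cells and 13.4, 12.5 and 18.2 in FB. Mural cells exceeded FB by 1.49 ± 0.38 (adjusted p = 0.00951) and EC exceeded FB by 1.24 ± 0.37 (adjusted p = 0.0161), the latter lost without the WT library (adjusted p = 0.0697). Without the library block neither was called (adjusted p = 0.0552 and 0.0592). In the Foxn1Lin male library 37 of 107 UMIs of the FB level lay in 1 barcode. Col25a1, a transmembrane collagen known from neurons and muscle, had 34.5, 37.3 and 68.9 CPM in mural cells, 15.5, 116 and 79.2 in Spp1-high cells and 3.08, 4.43 and 5.53 in FB. The female Spp1-high value is 1 UMI, and 12 of 30 UMIs and 12 of 24 UMIs of the other libraries came from 1 barcode each. Against FB, mural cells were higher by 3.36 ± 0.37 (adjusted p = 1.22e-05) and Spp1-high cells by 4.02 ± 0.45 (adjusted p = 7.97e-05).

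The remaining 20 members did not reach 20 CPM in some class in each library, and those of them named here or above were chosen after their values were seen. Col17a1, the hemidesmosome collagen of basal epithelium, had 19.7, 7.61 and 9.61 CPM in TEC and 0.56, 0.233 and 0.198 in FB, 4.71 ± 0.57 (adjusted p = 2.1e-05). Col11a2, a minor fibrillar chain of cartilage, had 8.14, 16.3 and 33.6 CPM in TEC and was higher there than in FB by 3.64 ± 0.50 (adjusted p = 3.39e-05). Col9a2, Col9a3 and Col22a1, all FACITs, were also called higher in TEC, by 3.26 ± 0.73, 1.27 ± 0.36 and 2.52 ± 0.50, with adjusted p-values of 0.00425, 0.00763 and 0.000771. Together with Col12a1, Col19a1, Col9a1 and Col10a1 these are the 9 members higher in TEC than in FB, and 6 of the 9 are FACIT chains, out of 9 FACIT chains among the 44 members. The other FACIT chains in TEC against FB were Col14a1 at -2.82 ± 0.55, Col16a1 at -2.36 ± 0.46 and Col20a1 at -0.62 ± 0.27. Col9a1 had 273 UMIs in TEC against 3 in FB, a CPM ratio of 111-fold (95% interval 37.6 to 542). Col10a1 had 111 UMIs against 1, a ratio of 136-fold (95% interval 23.8 to 5401), but its UMIs lay in few barcodes, with 24 of 24 UMIs in 1 barcode of the Foxn1Lin male TEC and 79 of 87 UMIs in 1 of the WT TEC. Without the WT library the calls of Col10a1 (adjusted p = 0.186) and Col9a3 (adjusted p = 0.198) were lost, and by the DESeq2 test those of Col10a1 (adjusted p = 0.11) and Col9a2 (adjusted p = 0.0815).

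In EC, Col13a1, a transmembrane chain, had 14.7, 30.1 and 24.7 CPM and Col28a1, a chain with von Willebrand domains, had 16.2, 10.8 and 7.52 CPM. Mural cells held 1 UMI of Col28a1 in all against 289 in EC, a CPM ratio of 82.6-fold (95% interval 14.7 to 3274). TEC were lower than EC, at -3.52 ± 0.66 (adjusted p = 0.000512) for Col13a1. Col17a1 and Col9a3 were called higher in EC than in FB, by 2.32 ± 0.60 and 1.14 ± 0.36. Without the Foxn1Lin male library these calls were lost (adjusted p = 0.0593 and 0.0881), as they were without the WT library (adjusted p = 0.0683 and 0.242), and Col9a3 was lost without the block (adjusted p = 0.0588). Col2a1, the main cartilage chain, was called higher in mural cells than in FB on 34 UMIs against 2, a ratio of 92.7-fold (95% interval 23.8 to 796), with 31 of 33 UMIs in 1 barcode of the WT library. Col26a1 and Col7a1 reached 7.07, 6.06 and 19.5 and 2.66, 7.81 and 16 CPM in FB. Col23a1 had 18.3, 18.5 and 19 CPM in TEC, with 52 of 119 UMIs and 44 of 119 UMIs of the Foxn1Lin libraries in 1 barcode each, and 22.3, 10.8 and 20.8 CPM in FB.

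For 4 of these genes the share of barcodes with a UMI was compared at equal depth. After each barcode was thinned to 2000 UMIs, 83.3%, 79% and 85% of FB held a Col1a2 UMI against 6.07%, 0.883% and 1.35% of EC, a class not known to make type I collagen. Unthinned, the shares for Col1a2 were 95%, 96.7% and 96.8% in FB and 9.9%, 3.06% and 3.98% in EC, at median depths of 7403, 9378.5 and 8229 UMIs in FB and 3855, 7380 and 6983 in EC. The source of the Col1a2 UMIs in EC was not tested. For Col4a1 the thinned shares were 78.6%, 68.7% and 74.8% in EC, 66.7%, 71.4% and 58.8% in FB and 20.8%, 21.8% and 22.6% in TEC. For Col12a1 they were 16.9%, 24.4% and 20.1% in TEC (35.3%, 51.2% and 45.1% unthinned), 6%, 3.5% and 2.73% in FB and 0.822%, 0.504% and 0.86% in EC. TEC thus had the highest Col12a1 share of these classes in each library. For Col19a1 the thinned shares were 18.2%, 7.67% and 7.92% in mural cells, 3.33%, 6.36% and 9.59% in TEC and 0.11%, 0% and 0% in FB.

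Fibroblasts were divided into a Pi16 or Dpp4 subset (704, 64 and 140 barcodes), markers of adventitial fibroblasts by background, and a Ptn or Postn subset (297, 612 and 1147), neither gate using a collagen. Of the 44 members, 33 entered this fit of 12052 genes. Between the subsets, 6 of the 44 were higher and 18 lower (18.2% and 54.5% of the members tested), beside 10.9% and 13.3% of all genes tested. The medians were -0.87 and -0.03. Mesothelial markers summed to 354, 341 and 337 CPM in the Pi16 or Dpp4 subset against 16, 10.8 and 29.8 in the other, and EC markers to 92, 17.4 and 15.2 against 184, 105 and 102. The TEC list summed to 123, 36.3 and 69.6 against 318, 102 and 146, and the mural list to 231, 100.1 and 127 against 287, 363 and 321. The part of these markers in the differences was not tested. The 6 higher members were fibrillar chains and FACITs, and the 18 lower ones took in all 6 type VI chains, both multiplexins and Col4a5 and Col4a6. Col14a1 had 568, 377 and 657 CPM in the Pi16 or Dpp4 subset and 31.1, 12.1 and 27.7 in the other, 4.57 ± 0.20 (adjusted p = 2.56e-08). The subsets did not overlap, the WT value was the highest of the Pi16 or Dpp4 values, and the Pi16 or Dpp4 subset outnumbered the other in the female library alone, where whole-class FB Col14a1 was highest. Col12a1 had 100.4, 18.9 and 56.8 against 9.52, 17.2 and 19 CPM, 1.81 ± 0.38 (adjusted p = 0.00355), with overlapping values. Col1a1 had 600.1, 423 and 916 against 367, 315 and 492 CPM, 0.68 ± 0.17 (adjusted p = 0.00965).

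The remaining higher calls in the Pi16 or Dpp4 subset were Col1a2 (0.63 ± 0.16), Col5a1 (0.60 ± 0.16) and Col3a1 (0.56 ± 0.16), with adjusted p-values of 0.011, 0.0129 and 0.0211. These differences of under 1 on the log2 scale depended on single libraries and on the block. Col1a2 and Col3a1 were lost without the Foxn1Lin male (adjusted p = 0.0959 and 0.127), and Col3a1 and Col5a1 without the Foxn1Lin female (0.0709 and 0.0572). Without the filter on low counts Col3a1 and Col5a1 were not called (adjusted p = 0.0998 and 0.0545). Without the library block these 3 were not called, and neither were Col1a1 (adjusted p = 0.151) and Col5a2 (adjusted p = 0.0801).

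On the Ptn or Postn side stood the alternative type VI chains. Col6a4 had 0.971, 0 and 0 CPM in the Pi16 or Dpp4 subset against 52.6, 52.7 and 63.2, -6.21 ± 0.37 (adjusted p = 1.72e-07). Col6a6 had 26.9, 30.5 and 68 against 390.3, 342 and 654 CPM, -3.55 ± 0.20 (adjusted p = 1.01e-07). For both, all 3 values of one subset lay below all 3 of the other. The common chains moved less, Col6a1 by -0.87 ± 0.18, Col6a2 by -1.13 ± 0.17 and Col6a3 by -0.99 ± 0.19, and Col6a1 was lost without the Foxn1Lin male library (adjusted p = 0.0548). Col15a1 had 297, 87 and 205 against 838, 798 and 1251 CPM, -2.38 ± 0.27 (adjusted p = 3.21e-05). Col5a2 was lower, at -0.64 ± 0.18 (adjusted p = 0.0193), opposite in direction to Col5a1 (0.60 ± 0.16), and was lost without the WT library (adjusted p = 0.144). The Col5a1 to Col5a2 ratio was 0.727, 0.433 and 0.771 in the Pi16 or Dpp4 subset and 0.334, 0.242 and 0.231 in the other, without overlap. Col4a5, Col4a6 and Col27a1 were lower in the Pi16 or Dpp4 subset, at -1.42 ± 0.16, -2.34 ± 0.27 and -1.70 ± 0.16. Minor chains with at most 3 UMIs in the Pi16 or Dpp4 subset of all libraries, of which Col13a1 and Col24a1 were named after their values were seen, gave ratios of the Ptn or Postn subset to it of 48.3-fold (95% interval 13.2 to 401) for Col24a1, 41-fold (95% interval 13.9 to 200.2) for Col13a1 and 25.2-fold (95% interval 6.83 to 211) for Col25a1.

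**Figure D4:**
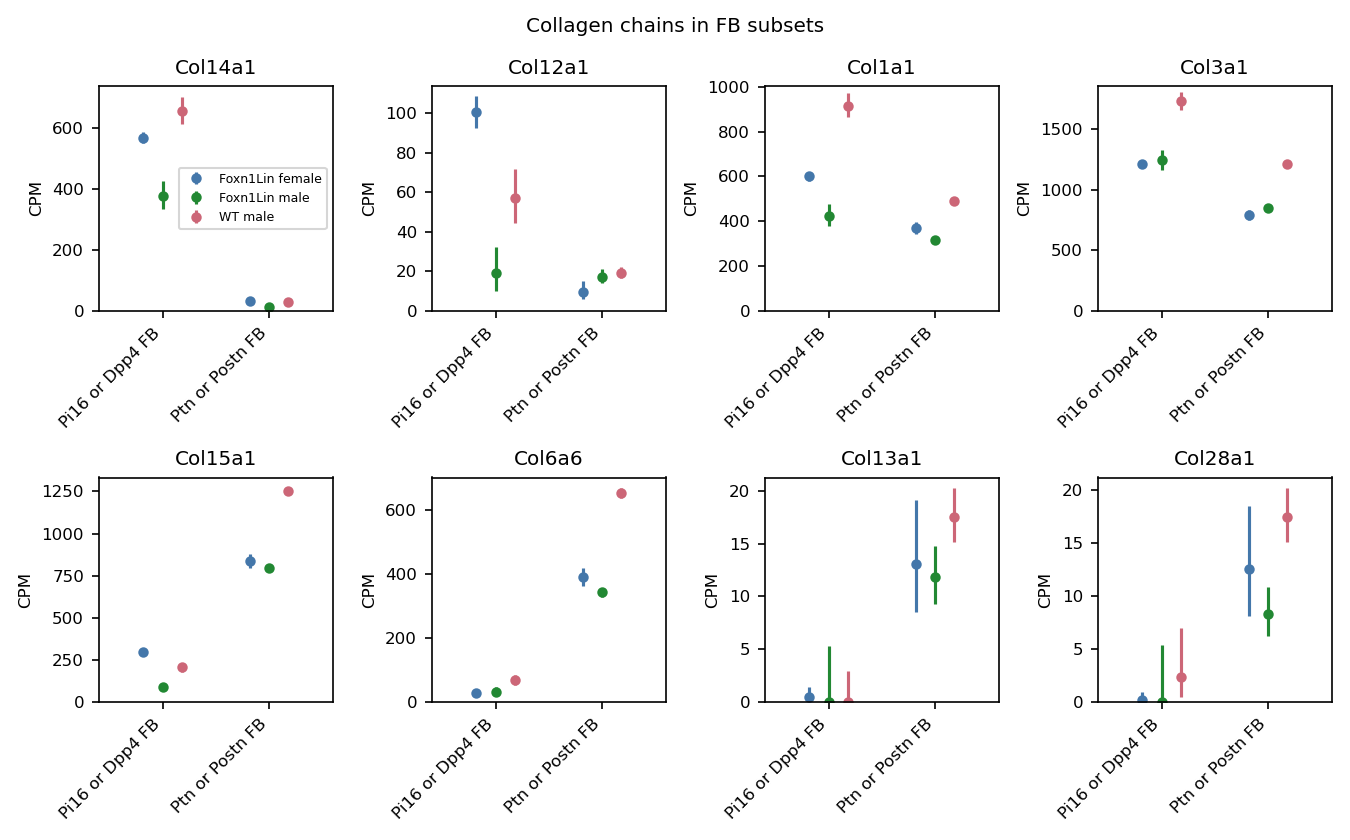
CPM of 8 collagen chains in the Pi16 or Dpp4 and the Ptn or Postn fibroblast subsets, 1 point per library with 95% counting intervals. Col14a1 is at 377 CPM or above in every Pi16 or Dpp4 value and at 31.1 CPM or below in every Ptn or Postn value, and Col6a6 and Col15a1 are the other way round.

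Mural cells were divided by Myh11, the smooth muscle myosin (285, 345 and 287 barcodes), and Rgs5 without Myh11, a pericyte marker (87, 45 and 26). Of the 44 members, 25 entered this fit of 8554 genes. In the Myh11 subset against the Rgs5 subset, 5 of the 44 were higher and 11 lower (20% and 44% of the members tested). The shares of all genes tested were 7.86% and 5.92%, and the medians were -1.33 and 0.02. The Rgs5 subset also carried more EC markers in each library, 1184, 96 and 159 CPM against 202, 57.1 and 23.9 in the Myh11 subset, and the FB list was higher in 2 of 3, at 1791, 699 and 1602 against 810.4, 966 and 702. Pdgfrb, which the FB list shares with the mural list, gave 674, 489 and 725 CPM of these sums in the Rgs5 subset against 291, 302 and 374 in the Myh11 subset, and Dcn, of the FB list alone, 613, 50.3 and 546 against 284, 599.8 and 284. The TEC list was at 638, 421 and 249 CPM in the Rgs5 subset against 178, 58 and 213. Their part in the differences below was not tested. The type IV pairs parted here. Col4a1 had 495, 275 and 362 CPM in the Myh11 subset against 1511, 919 and 1844 in the Rgs5 subset, -1.73 ± 0.24 (adjusted p = 0.00102), and Col4a2 differed by -1.74 ± 0.24 (adjusted p = 0.0011). Col4a5 and Col4a6 went the other way, higher in the Myh11 subset by 2.44 ± 0.39 (adjusted p = 0.00238) and 3.28 ± 0.60 (adjusted p = 0.00503). Col4a5 had 116, 169.9 and 236 CPM against 8.32, 68.6 and 41.4. The other higher calls were Col18a1 at 1.96 ± 0.38 (adjusted p = 0.00628), Col19a1 at 2.82 ± 0.72 (adjusted p = 0.0254) and Col27a1 at 1.30 ± 0.32 (adjusted p = 0.023). Col19a1 was lost without the Foxn1Lin female (adjusted p = 0.0874) or the WT library (0.0521), and Col27a1 without the Foxn1Lin female (0.128) or male (0.0729). Neither was called by the DESeq2 test (adjusted p = 0.0941 and 0.103) or without the block (0.0544 and 0.116).

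Several fibrillar chains were lower in the Myh11 subset than in the Rgs5 subset, beside the FB and EC markers just given. Col3a1 had 83.1, 93.2 and 125 CPM against 413, 475 and 1001, -2.39 ± 0.24 (adjusted p = 0.0002). Col1a1 differed by -2.06 ± 0.30 (adjusted p = 0.00146), Col5a2 by -2.73 ± 0.24 (adjusted p = 0.000133) and Col5a3 by -3.11 ± 0.30 (adjusted p = 0.000189). For Col3a1 the 2 subsets did not overlap.

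TEC were divided by Krt5 or Krt14, keratins of medullary and basal epithelium (134, 203 and 366 barcodes), and by Prss16, a protease of cortical epithelium (41, 9 and 47, the Foxn1Lin male being left out). Of the 44 members, 27 entered this fit of 12473 genes. Over the 2 libraries, 3 of the 44 were higher and 0 lower (11.1% and 0% of the members tested). The shares of all genes tested were 3.38% and 2.44%, and the medians were 1.19 and 0.02. The 3 genes were Col3a1 at 3.06 ± 0.41 (adjusted p = 0.0235), Col5a2 at 2.71 ± 0.38 (adjusted p = 0.0253) and Col6a1 at 1.96 ± 0.33 (adjusted p = 0.0334), all of them higher in Krt5 or Krt14 TEC in both libraries. Without the library block Col3a1 and Col6a1 were lost (adjusted p = 0.0734 and 0.0598), and without the count filter 13 members were called. Col12a1, the main TEC chain, was not called and had 126, 284 and 254 CPM in Krt5 or Krt14 TEC and 249, 483 and 115 in Prss16 TEC (the latter including the 9 Foxn1Lin male barcodes). FB markers summed to 519 and 298 CPM in Krt5 or Krt14 TEC of the female and WT libraries against 210 and 117 in Prss16 TEC. The hematopoietic list gave 963 and 328 against 274 and 258, and the EC list 98.6 and 38 against 57 and 21.8. The mesothelial list gave 95.8 and 76.2 against 52.8 and 57.4, while the mural list gave 174 and 135 against 171 and 191. All but the mural list moved in the same direction as the 3 called genes in both libraries. Their part in these differences was not tested.

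The lineage reporter gave a further division of the Foxn1Lin libraries. Barcodes with reporter UMIs made up 410 of 464 and 395 of 426 TEC, 380 of 1878 and 240 of 818 EC, 78 of 424 and 82 of 443 mural cells, 274 of 1848 and 113 of 860 FB, and 9 of 11 and 28 of 28 Spp1-high barcodes, and no barcode of the wild-type library held any. The source of reporter UMIs in EC, mural cells and FB was not tested. Reporter-positive Spp1-high barcodes, in the female and the male library, had 302 and 116 CPM of Col1a2, 178 and 248 of Col3a1 and 906 and 562 of Col4a1. In the female Spp1-high class as a whole, 31 of 54 UMIs of Col4a1 and 9 of 18 UMIs of Col1a2 came from 1 barcode. The reporter-positive TEC had 21 and 4.19, 17.1 and 9.51 and 119 and 155 CPM of the same genes. For each of the 3, both Spp1-high values lay above both TEC values. Col12a1 was present in both, with 165 and 251 CPM in reporter-positive TEC and 88.8 and 217 in reporter-positive Spp1-high barcodes.

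For other partner chains the ratios of UMIs were also set side by side. Col1a1 to Col1a2 was 0.399, 0.301 and 0.376 in FB and 0.407 and 0.453 in mesothelial cells. Col6a1 to Col6a2 was 0.909, 0.945 and 0.783 in FB and 1.52, 1.26 and 1.2 in TEC, where each library lay higher than its FB. Col6a3 to Col6a1 was 0.579, 0.59 and 0.796 in FB, 1.09, 0.625 and 0.689 in mural cells and 0.18, 0.118 and 0.155 in TEC, so that TEC held the least Col6a3 per Col6a1 of these 3 classes in every library. Col5a1 to Col5a2 was 0.6, 0.274 and 0.282 in FB and 0.47, 0.106 and 0.113 in TEC. The female library stood above the male ones for this pair in both classes.

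**Figure D5:**
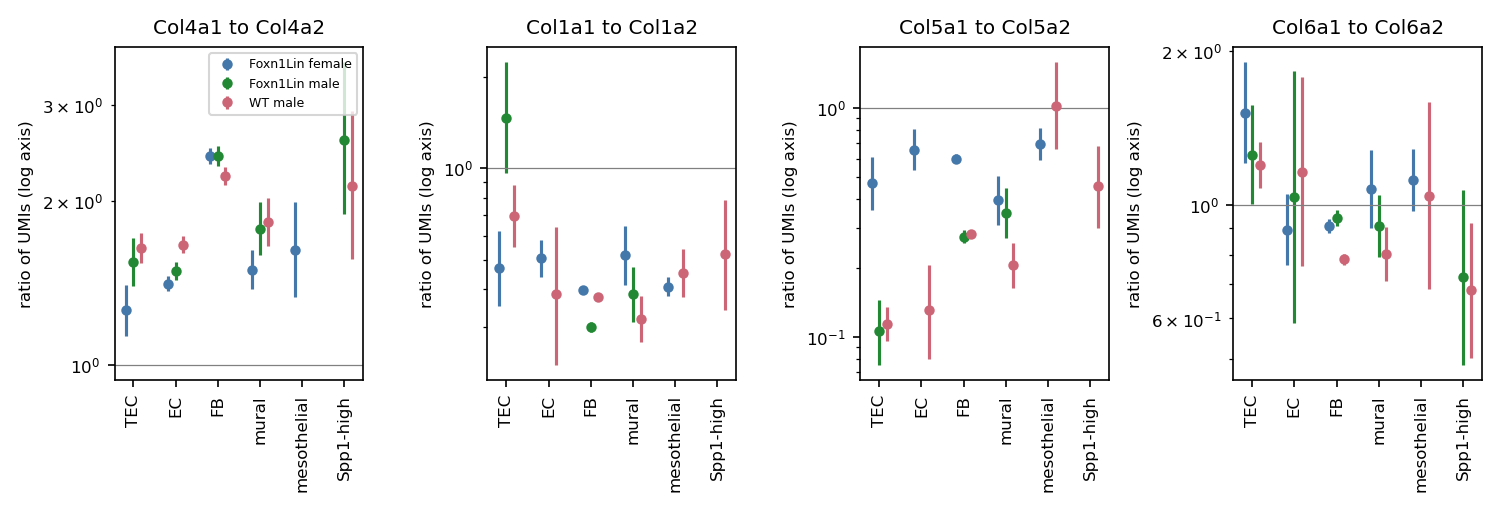
Ratio of UMIs between partner collagen chains by class and library on a log scale, with 95% counting intervals. The Col4a1 to Col4a2 ratio is 2.22 or above in FB and 1.66 or below in EC.

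The enzymes and chaperones that process collagens were also counted, in a list of 28 genes (prolyl and lysyl hydroxylases, the chaperone Serpinh1, procollagen processing and cross-linking enzymes). Counts below are of genes called higher and lower, beside the shares of all genes tested. In TEC against FB they were 0 and 26, beside 27.5% and 25.3%, with a median log2 fold change of -2.68. Serpinh1, the collagen-specific chaperone, had 48.4, 84.2 and 100.2 CPM in TEC and 510.0, 1057 and 1075 in FB, -3.89 ± 0.18 (adjusted p = 4.59e-09). Pcolce, which enhances removal of the procollagen C-propeptide, had 10.4, 4.82 and 10.3 CPM against 381, 310.0 and 249.5, -5.55 ± 0.35 (adjusted p = 3.26e-08). In EC against FB the counts were 1 and 22, beside 17.1% and 20.3%, and the 1 higher call was lost without the Foxn1Lin male or the WT library. Most of the list thus read lower in TEC and EC than in FB, with 23 to 25 and 19 to 22 lower when a library was left out.

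In mural cells against FB the counts for this list were 1 and 19, beside 12.7% and 13.9%, and the lower count fell to 13 without the Foxn1Lin male and 12 without the WT library. In mesothelial cells against FB they were 1 and 12, beside 9.22% and 10.5%, with 6 lower when the Foxn1Lin male was left out and 5 without the block. In Spp1-high cells against FB they were 0 and 13, beside 3.58% and 4.94%, with 3 lower without the Foxn1Lin male and 5 without the WT library. In these 3 classes the size of the count thus depended on single libraries. Spp1-high cells against TEC gave 13 and 0, beside 8.05% and 6.86%, with 5 higher without the Foxn1Lin male and 4 without the WT library. Mural cells against EC gave 13 and 5, beside 18.2% and 16.4%, with 3 lower without the Foxn1Lin female and 1 without either other library. TEC against EC gave 5 and 13, beside 30.2% and 23.5%, with 9 higher without the Foxn1Lin female and 3 without the WT library. Plod1, a lysyl hydroxylase, was lower in TEC than in EC, at -4.92 ± 0.36 (adjusted p = 1.07e-07). Between fibroblast subsets the counts were 7 and 4, beside 10.9% and 13.3%, with 2 lower without the WT library. Pcolce2, a relative of Pcolce, had 412, 390.1 and 401 CPM in the Pi16 or Dpp4 subset against 9.02, 3.66 and 2.24, 6.68 ± 0.31 (adjusted p = 3.49e-08). The mural subsets gave 1 and 4 with 24 of the 28 genes tested, beside 7.86% and 5.92%. The lower count was 1 without the Foxn1Lin female and 0 without either other library. The TEC subsets gave 1 and 2 with 23 of the 28 tested, beside 3.38% and 2.44%.

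Of 19 genes for collagen receptors and turnover, 16 entered the fit of the classes. In TEC against FB, 1 and 10 were called higher and lower, beside 27.5% and 25.3%. The 2 discoidin receptors, kinases that bind triple-helical collagen, were divided between the classes. Ddr2 had 919.7, 616 and 640.2 CPM in FB and 19.1, 6.06 and 6.15 in TEC, -6.68 ± 0.49 (adjusted p = 1.19e-07). Ddr1 had 134, 206 and 261 CPM in TEC and 8.66, 3.55 and 8.46 in EC, 4.46 ± 0.35 (adjusted p = 1.85e-07). The counts in EC against FB were 2 and 10, beside 17.1% and 20.3%, with 1 higher without the WT library. In mural cells against FB they were 4 and 8, beside 12.7% and 13.9%, with 2 higher without the WT library. In mesothelial cells against FB they were 1 and 9, beside 9.22% and 10.5%. In Spp1-high cells against FB they were 2 and 7, beside 3.58% and 4.94%, with 1 and 3 without the Foxn1Lin male and 0 and 4 without the WT library.

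Spp1-high cells against TEC gave 6 and 1 for the receptor and turnover list, beside 8.05% and 6.86%, with 3 and 1 without the Foxn1Lin male and 0 and 0 without the WT library. Mural cells against EC gave 9 and 0, beside 18.2% and 16.4%, with 5 higher without the Foxn1Lin male and 4 without the WT library. TEC against EC gave 5 and 5, beside 30.2% and 23.5%, with 2 higher without the WT library. Itga1, a collagen-binding integrin subunit, was lower in TEC than in EC, at -4.35 ± 0.40 (adjusted p = 7.88e-07). Between fibroblast subsets the counts were 6 and 4 with 14 of the 19 genes tested, beside 10.9% and 13.3%. Mmp9, a gelatinase, had 1.13, 0 and 6.4 CPM in the Pi16 or Dpp4 subset and 80.2, 98.9 and 164 in the Ptn or Postn subset, -5.62 ± 0.32 (adjusted p = 1.22e-07). The mural subsets gave 1 and 1 with 11 of the 19 genes tested, beside 7.86% and 5.92%, with 0 higher when any library was left out. The TEC subsets gave 1 and 2 with 11 of the 19 tested, beside 3.38% and 2.44%.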

How the data were processed

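Stroma depleted of CD45-positive cells was profiled as 3' droplet libraries. The deposited values are whole counts of UMIs per gene and barcode, which the authors made with Cell Ranger (7.01 in the submitters' processing notes) against mm10 with reporter sequences added, as called and as raw matrices (headers of raw matrices name version 4). Intronic reads were counted. Called barcodes numbered 8616, 3583 and 5478. Barcodes with at most 1000 genes together with at least 20% mitochondrial UMIs were left out (138, 149 and 222). Gates were Epcam, Pecam1, Pdgfra or Upk3b of at least 2 UMIs, Rgs5 plus Acta2 of at least 5, and Spp1 of at least 5 with Epcam of at most 1 and Ptprc 0. Barcodes in 2 classes, which include doublets, were dropped (601, 184 and 451; 7.09%, 5.36% and 8.58%); no doublet caller was run. The classified barcodes were 4963, 2575 and 3847. Empty droplets were uncalled barcodes within a factor of 2 of the median of those with at least 10 UMIs.

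Counts were summed per library and class (at least 10 barcodes), filtered with filterByExpr, scaled by TMM and tested with edgeR 4.0.16 (R 4.3.3, limma 3.58.1) with library as block; adjusted p used Benjamini-Hochberg over all genes. The scripts were tested on simulated data. Libraries are not replicates of a condition. A p-value sets a class difference against the residual spread of all class and library sums in its fit. It does not measure whether that difference repeated in each library. The mesothelial and TEC subset comparisons rest on 2 libraries. CPM have exact Poisson intervals and ratios binomial ones (95%), covering counting error only. The alternatives were DESeq2 1.42.0 (its test and its size factors), no count filter, no block, no barcode filter, doubled gates and no gene of another gate. Others were the top 4% of barcodes by UMIs left out, free RNA subtracted, thinning to 2000 UMIs and leaving out each library. Free RNA was subtracted from TEC and EC sums only, so the counts of the other classes were unchanged there. Per-library values are given for members that reach 20 CPM in some class in each library, and at most 5 called genes per list and comparison are named. Members, gates and lists were chosen with earlier results of these data known. The set of promoter windows used held none for Col1a1, Col2a1, Col4a3, Col5a2, Col9a3, Col12a1, Col14a1, Col22a1 and Col26a1. Python packages were numpy 2.4.6, scipy 1.17.1, pandas 2.3.3 and matplotlib 3.10.9.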

Additional observations from a re-analysis of the deposited data

Results flagged for a closer look

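In 10 comparisons a collagen chain lay on opposite sides in different libraries beyond the counting intervals. Values are log2 ratios of CPM in the order Foxn1Lin female, Foxn1Lin male and WT male; each library is 1 sample, and the difference between libraries was not tested.

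Between EC and FB, Col28a1 stood at 2.53, 0.28 and -0.86. Between mural cells and FB, Col4a2 stood at 0.61, -0.88 and 0.029, Col13a1 at 2.39, -1.47 and -1.16, and Col12a1 at -2.49, 1.08 and 2.24, where 173 of 251 UMIs of Col12a1 in WT mural cells came from 1 barcode. Between TEC and EC the fibroblast chains Col1a1, Col3a1 and Col6a2 turned in the female library alone: Col1a1 stood at -1.51, 2.56 and 1.24, Col3a1 at -1.77, 1.42 and 1.62, and Col6a2 at -0.82, 2.71 and 2.65. The FB markers were at 709 CPM in female EC against 63.7 and 86.5 in the male libraries, and their part in these values was not tested. Between the Pi16 or Dpp4 and the Ptn or Postn FB, Col4a1 stood at 0.27, -0.10 and -0.64. Between Krt5 or Krt14 TEC and Prss16 TEC, in the female and WT libraries, Col12a1 stood at -0.98 and 1.15 and Col19a1 at -1.57 and 0.99.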

How the results depend on the processing

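Of 249 calls of a member in a comparison, 160 kept their direction and stayed called under every alternative run. Calls lost were 4 of 249 with DESeq2 size factors, 10 of 249 with the DESeq2 test, 4 of 249 without the count filter, 0 of 249 without the barcode filter, 11 of 206 with doubled gates, 11 of 204 without genes of other gates, 6 of 244 without the top 4% of barcodes and 12 of 206 with free RNA subtracted; leaving out a library lost 12 of 224 (Foxn1Lin female), 51 of 248 (Foxn1Lin male) and 62 of 222 (WT male). The library is the block of the fits and the only pairing of classes. Without the replicate block 30 of 249 calls were lost; members called numbered 35 in TEC and 22 in mural cells against FB, and 19 between FB subsets, and the TEC subset count went from 3 to 1. It was 13 without the count filter; the cause was not tested. Leaving out a library gave 12 to 30 members for mural cells against FB, 2 to 22 for Spp1-high cells against FB and 9 to 22 for Spp1-high cells against TEC. Only Col19a1 in Spp1-high cells against FB was reversed, at -3.41 without the WT library and 7.64 without the Foxn1Lin female; its WT UMIs were in 1 barcode. The median TEC collagen level was 1132 CPM after thinning, against 1005. The mesothelial and TEC subset comparisons could not be fitted without the Foxn1Lin female or the WT library. Of the classes present in a library, Spp1-high had the fewest UMIs in sum (64696, 257916 and 303188).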

Other observations

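EC were also divided by 1 gene each, a division chosen after values were seen and given with no test: Gja5, an arterial connexin (16, 19 and 27 barcodes), Selp, a venous selectin (71, 224 and 227), and Gpihbp1, a capillary lipase anchor (1308, 410 and 335). Col15a1 had 534, 606 and 759.6 CPM in the Selp barcodes, 66.6, 93.1 and 215 in the Gpihbp1 barcodes and 16, 0 and 53.5 in the Gja5 barcodes, in the same order in every library. Col8a1 had 305, 121 and 160.5 CPM in the Gja5 barcodes, 7.37, 0 and 2.57 in the Selp barcodes and 51.5, 18.6 and 40.2 in the Gpihbp1 barcodes, and Col5a2 had 128, 178 and 302, 12.9, 10.3 and 11.5 and 15.2, 1.77 and 9.32 in the same gates. Both chains were thus highest in the Gja5 barcodes. Col13a1 had 14.3, 57.7 and 47 CPM in the Gpihbp1 barcodes and 0, 1.15 and 1.28 in the Selp barcodes, and Col4a1 had 1136, 1020.4 and 1479 and 833, 561 and 774. The Gpihbp1 gate took a larger part of the female EC than of the male ones.

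TEC were divided in the same way by single genes, in gates that overlap. The Krt5 gate took at least 2 Krt5 UMIs at any Prss16 count, whereas the Krt5 or Krt14 subset described earlier took at most 1 Prss16 UMI. Col12a1 had 301, 326 and 208 CPM in Ccl21a barcodes (70, 90 and 136) and 249.5, 324 and 289 in Krt5 barcodes (123, 178 and 385), against 33.7, 71.6 and 38 in Aire barcodes (120, 69 and 164) and 65.9, 72.7 and 80 in Cldn3 barcodes (114, 82 and 245). Every Ccl21a and Krt5 value lay above every Aire and Cldn3 value. Col11a2 had 19.7, 46 and 71.3 CPM in Cldn3 barcodes and 0, 0.689 and 3.36 in Aire barcodes. Col17a1 had 37, 24.1 and 27.9 CPM in Aire barcodes and 14, 1.88 and 4.05 in Krt5 barcodes. Col4a4 had 70.4, 89.5 and 69.5 CPM in Trpm5 barcodes (15, 6 and 40), the gene of a tuft cell channel, and 4, 4.97 and 5.33 CPM in TEC as a whole.

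Barcodes in no class (2914, 675 and 958) carried 4561, 4603 and 4948 CPM of collagens in all, below FB and above TEC in each library. They also held the FB list at 6896, 7014 and 5340 CPM in sum, against 12406, 14797 and 11964 in FB. The part of these markers in the collagen level was not tested.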
